A study of Homo sapiens with 8 samples.

Results

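ChIP-seq peaks of 5 genes of the BMP and TGF-β signaling pathways, BMP4, BAMBI, SMAD7, TGIF1 and GADD45B, were examined in DLD-1 cells that expressed a dominant negative form of TCF1E. A peak was assigned to a gene when the annotation deposited with the peak list named that gene as nearest. By this rule 27 of the 23433 peaks in the 6 lists belonged to the 5 genes, out of 10699 genes named in any list. DLD-1 is a colon cancer cell line with constitutive Wnt signaling, and its endogenous β-catenin and TCF proteins remained present in every sample. The wild-type protein (dnTCF1EWT) and a mutant whose C-clamp cannot bind DNA (dnTCF1Emut) both lack the β-catenin binding domain and carry a FLAG tag. Each was expressed in its own clonal line, grown in blasticidin and zeocin. FLAG-bound chromatin was collected from cells without doxycycline (0 h) and after 2 and 9 h of doxycycline at 1 µg/mL, so that there were 3 lists for each protein.

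BMP and TGF-β ligands bind serine/threonine kinase receptors, which phosphorylate SMAD proteins that then enter the nucleus with SMAD4 and regulate transcription. The pathways are held in check by feedback inhibitors, several of which are themselves SMAD targets. In the intestine BMP signals oppose the Wnt signals that maintain the crypt, and genes of the BMP pathway are known Wnt targets in colon cancer cells. TCF proteins recognize the Wnt response element (WRE) through their HMG box, and TCF1E also binds GC-rich Helper sites through its C-clamp, a second DNA binding domain. In the deposited motif counts the WRE is CTTTG followed by A or T, A or T, and C or G. The Helper site is ACCGCC or GCCGCC, and the short Helper site is ACCG or GCCG, which every Helper site contains.

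The lists held 1907, 5585 and 12996 peaks for dnTCF1EWT at 0, 2 and 9 h and 708, 1883 and 354 for dnTCF1Emut, all with a MACS peak score of about 50 or more. A smaller P-value gives a higher score, as does deeper sequencing, and the depth is unknown from the lists, so ranks within a list are given beside the scores. Each list was made from pooled duplicates, which leaves no spread between replicates and no test of a difference between conditions. Protein cannot be told apart from cell line, or from any difference in library batch between the lines. The lists also differed in kind. Alu repeats made up 48.5% and 76% of the dnTCF1EWT peaks at 2 and 9 h but 0.478% of the dnTCF1Emut peaks at 2 h, and median peak lengths were 187, 171 and 452 bp. The part of these differences in the results was not tested.

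By the name of the nearest gene, the 5 genes had peaks after induction and none before it. The dnTCF1EWT lists held 13 peaks of these genes at 2 h and 11 at 9 h, and the dnTCF1Emut list held 3 at 2 h. The 0 h lists of both lines and the dnTCF1Emut 9 h list held 0. In these lists 15.8% (dnTCF1EWT 0 h), 5.57% (dnTCF1Emut 0 h) and 3.08% (dnTCF1Emut 9 h) of the 10699 genes were named. None of the 27 peaks overlapped a peak of untreated cells, and few did in the dnTCF1EWT lists as a whole (1.67% at 2 h and 1.31% at 9 h), against 17.4% in the dnTCF1Emut 2 h list. Peaks of the untreated dnTCF1EWT line named for other genes did lie in the neighborhood. One had a score of 52.66 at 74.7 kb upstream of a TGIF1 TSS (chr18:3337291-3337477, named for MYL12B). Another had a score of 88.36 at 117 kb upstream of a SMAD7 TSS (chr18:46593464-46593807, named for MIR4744), and that region was also listed for dnTCF1EWT after induction, with scores of 86.66 at 2 h and 91.13 at 9 h. Over all 10699 genes, 20.2% had a peak in at least 1 of the untreated lists, 40.1% had a peak for dnTCF1EWT at 2 h, 76.5% at 9 h, and 13.9% for dnTCF1Emut at 2 h. All 5 genes were named at both 2 and 9 h for dnTCF1EWT, which held for 24.7% of genes. BAMBI and GADD45B had peaks in these lists alone, a pattern shared by 14.8% of genes. BMP4, SMAD7 and TGIF1 also had a dnTCF1Emut peak at 2 h, a pattern of 3.45% of genes. The 5 genes were chosen with earlier results of these data known, so these shares are a description and no evidence that the genes differ from others. The sizes of the intervals between genes, which set how many peaks a gene can collect, were not taken into account.

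The 27 peaks covered 20 distinct regions. Of these, 7 were listed for dnTCF1EWT at 2 h alone, 6 for dnTCF1EWT at 9 h alone, and 4 at both times. The dnTCF1Emut peaks fell on 2 regions listed for dnTCF1EWT at 2 h and on 1 listed for it at 9 h. No region was in 3 lists. As shares of the lists, 4 of 13 dnTCF1EWT 2 h peaks of these genes overlapped a 9 h peak, against 14.9% of all 2 h peaks, and 4 of 11 dnTCF1EWT 9 h peaks overlapped a 2 h peak, against 6.47%. Each of the 3 dnTCF1Emut peaks overlapped a dnTCF1EWT peak, which held for 30.6% of the dnTCF1Emut 2 h list. Of them 2 did so at 2 h (27.9% of the list) and 1 at 9 h (13.6%), and 0 of 3 overlapped a dnTCF1Emut 9 h peak (12.4%). From the other side, 2 of 13 dnTCF1EWT 2 h peaks (9.44% of the list) and 1 of 11 at 9 h (1.97%) overlapped a dnTCF1Emut 2 h peak.

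**Figure D1:**
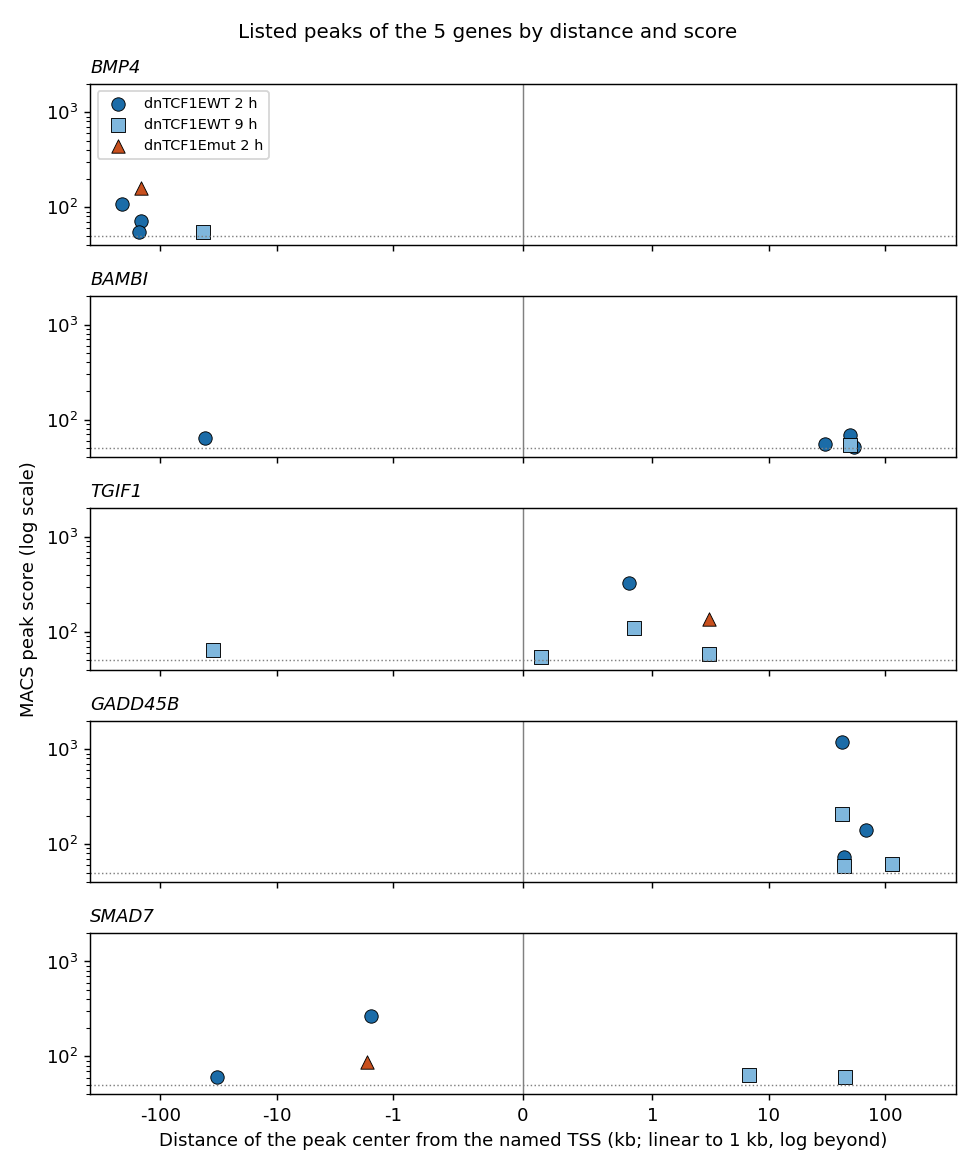
Peaks of each gene are plotted by distance of the peak center from the named TSS (kb, linear to 1 kb and logarithmic beyond, negative upstream) and MACS peak score (log axis), with 1 point per listed peak; the dotted line marks a score of 50, the lower end of the lists. Promoter-near points belong to TGIF1 and SMAD7, the highest point is the GADD45B peak of 1176.77 at 42.2 kb, and the BMP4 points of the 2 h lists lie beyond 100 kb upstream.

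BMP4, a secreted ligand of the BMP receptors, had its 2 h peaks far upstream and intergenic. Distances are given to the TSS at chr14:54423554 (hg19, minus strand). At 2 h dnTCF1EWT had a peak with a score of 107.49 at -215.6 kb (chr14:54638936-54639310), which ranked 855 of 5585. Another had a score of 71.03 at -145.4 kb (chr14:54568907-54569094, rank 1568), and the weakest a score of 54.58 at -152.1 kb (chr14:54575563-54575809, rank 3876). These ran from the upper to the lower part of the list, with 84.6, 71.9 and 30.6% of its peaks scoring lower. The strongest had 1 short Helper site and no WRE, whereas the 2 weaker peaks had 1 WRE each. No BMP4 peak of any list contained a full Helper site.

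At 9 h these upstream regions were no longer listed for dnTCF1EWT. The only BMP4 peak at 9 h had a score of 54.49 at -43.0 kb (chr14:54466413-54466606, rank 7852 of 12996), in an AluSz repeat and without any of the 3 motifs. dnTCF1Emut had 1 peak, at 2 h, with a score of 160.58 at -145.5 kb (chr14:54568714-54569301), which ranked 281 of 1883. This 588 bp peak contained the whole 188 bp dnTCF1EWT peak and had 2 WREs. Here the score was higher for dnTCF1Emut. The log2 ratio, dnTCF1EWT over dnTCF1Emut, was -1.18, whereas the median over the 527 dnTCF1EWT 2 h peaks shared with dnTCF1Emut was 0.45 (SD 1.17), and 7.97% of them had a lower ratio. The dnTCF1EWT peak covers less than 50% of the longer dnTCF1Emut peak, so the region was not shared when an overlap of 50% of both peaks was required.

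Peaks near BMP4 were also named for another gene. The microRNA gene MIR5580 lies on the other side of BMP4 from the upstream peaks and took the name of a dnTCF1EWT 2 h peak 9.71 kb downstream of the BMP4 TSS (chr14:54413729-54413955), with a score of 57.45, 1 Helper site and 4 short Helper sites. At 110 kb downstream, a region named for MIR5580 had a score of 247.77 for dnTCF1EWT at 2 h (chr14:54313055-54313486, rank 302) and 134.58 for dnTCF1Emut (chr14:54313028-54313573, rank 397), with 1 WRE in each. The former was higher and the latter lower than the best peak named for BMP4 in the same list. The number and rank of peaks counted for BMP4 thus depend on which gene is named as nearest.

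BAMBI, a pseudoreceptor that resembles a type I receptor without a kinase domain and inhibits BMP and TGF-β signaling, had 4 dnTCF1EWT peaks at 2 h. As many peaks or more were named for 1.42% of the 4295 genes in that list. Distances are to the TSS at chr10:28966424 (plus strand). The scores were 68.39 at +50.1 kb (chr10:29016387-29016577, rank 1703), 64.51 at -41.2 kb (chr10:28925198-28925342, rank 2017), 55.73 at +30.2 kb (chr10:28996562-28996692, rank 3417) and 51.27 at +53.7 kb (chr10:29019970-29020232, rank 5033). All were intergenic and weak, and all lay in repeats. The strongest was in a THE1D LTR element, the next 2 in Alu elements (AluSx1 and AluJo) and the weakest in a TTTC simple repeat. None had a WRE, and the +50.1 kb peak alone had a Helper site, 1 in number. The same LTR region was the only BAMBI peak at 9 h (chr10:29016390-29016589), with a score of 54.49 and rank 7852, again with 1 Helper site. dnTCF1Emut had no BAMBI peak at any time.

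SMAD7, an inhibitory SMAD that blocks receptor signaling and is induced by TGF-β, had the peak of these genes that was strong for dnTCF1EWT and also present for dnTCF1Emut near a TSS. The gene lies on the minus strand and distances are to the TSSs at chr18:46469177 and chr18:46477081. At 2 h the dnTCF1EWT peak had a score of 268.38 (chr18:46470534-46470966, rank 269 of 5585) in intron 2 of 3 of the longer transcript, 1.57 kb upstream of the nearer TSS. It had 2 WREs and 1 short Helper site but no full Helper site. The dnTCF1Emut 2 h peak there had a score of 88.1 (chr18:46470686-46471041, rank 825 of 1883), with the same motif counts. The dnTCF1EWT score was 3.05-fold higher, a log2 ratio of 1.61, and 84.1% of the regions shared by these lists had a lower ratio. In rank the peak stood above 95.2% of the dnTCF1EWT list and above 56.2% of the dnTCF1Emut list. The lists had median scores of 59.02 and 81.11, so these percentages are not on one scale and cannot be read as a difference in binding.

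At 9 h this SMAD7 region was not listed for either protein. A second 2 h peak of dnTCF1EWT, with a score of 60.48 at -33.0 kb (chr18:46509978-46510153), lay in an AluSc5 repeat and was not listed at 9 h either. Instead, the 9 h list held a peak with a score of 64.25 at +6.71 kb (chr18:46462382-46462551, rank 3452) in a CA repeat of intron 3 of 3, and one of 61.21 at +44.8 kb (chr18:46424254-46424519, rank 4250) in an AluSx1 repeat. They had 1 and 3 short Helper sites, no full Helper site and no WRE. Thus SMAD7 was named at both times for dnTCF1EWT, but no region was shared between them. Absence from a list means a score under about 50 and not the absence of signal.

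TGIF1, a homeodomain corepressor that binds SMAD2 and SMAD3, had the best-ranked promoter-near peak. At 2 h dnTCF1EWT had a single TGIF1 peak, with a score of 323.78 (chr18:3448173-3448684, rank 189 of 5585). It lay 0.82 kb downstream of the TSS at chr18:3447608 (plus strand), in intron 1 of 2 and in a CpG island, and TGIF1 ranked 180 of 4295 genes by highest score. The peak had 3 Helper sites and 10 short Helper sites but no WRE. At 9 h the same region had a score of 110.75 (chr18:3448314-3448624, rank 429 of 12996), with 2 Helper and 6 short Helper sites in a shorter peak of 311 bp against 512 bp.

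The dnTCF1EWT 9 h list held 3 further TGIF1 peaks that were not in the 2 h list. One had a score of 53.71 at 0.141 kb from the TSS at chr18:3453772 (chr18:3453823-3454003, rank 8525), with 1 Helper site. Another had a score of 64.85 in an AluSx repeat 35.1 kb upstream of the TSS at chr18:3412072 (chr18:3376912-3377075, rank 3208), with no motif. The last had a score of 58.57 at +3.06 kb (chr18:3456742-3456923, rank 5455), in intron 2 of 2 of another transcript, also with no motif. This last region was the one listed for dnTCF1Emut at 2 h, with a score of 135.29 (chr18:3456518-3457182, rank 393 of 1883). The dnTCF1Emut list had no peak at the promoter-near CpG island.

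GADD45B, a stress-response gene that is induced by TGF-β, had the highest peak of the 5 genes. Distances are to the TSS at chr19:2476123 (plus strand). The dnTCF1EWT 2 h peak at +42.2 kb (chr19:2517986-2518635) had a score of 1176.77 and ranked 13 of 5585, which placed GADD45B 12th of 4295 genes. It was 650 bp long with a GC content of 62.2%, 8 short Helper sites and 2 Helper sites, and no WRE. A further peak with a score of 142.04 at +67.7 kb (chr19:2543594-2543980, rank 619) lay in a CpG island and was the peak of these genes with both kinds of motif, 1 WRE and 3 Helper sites. The weakest 2 h peak had a score of 72.53 at +43.9 kb (chr19:2519940-2520119, rank 1482) in an AluSx repeat, with 2 short Helper sites and no full one.

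At 9 h the +42.2 kb peak had a score of 208.2 (chr19:2518125-2518542, rank 127 of 12996), with 2 Helper and 5 short Helper sites, and it remained the highest peak of the 5 genes. The Alu peak at +43.9 kb had a score of 58.91 (chr19:2519887-2520063, rank 5066). A peak of 61.66 at +113.0 kb in an AluSp repeat (chr19:2588999-2589153, rank 4102) was listed at 9 h but not at 2 h, and the CpG island peak was listed at 2 h but not at 9 h. All 6 GADD45B peaks lay in introns of GNG7, which encodes a G protein γ subunit and whose own start is farther away than that of GADD45B. The annotation thus gives the nearest start, and whether either gene is regulated from these regions was not measured by the lists. dnTCF1Emut had no GADD45B peak at any time.

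**Figure D2:**
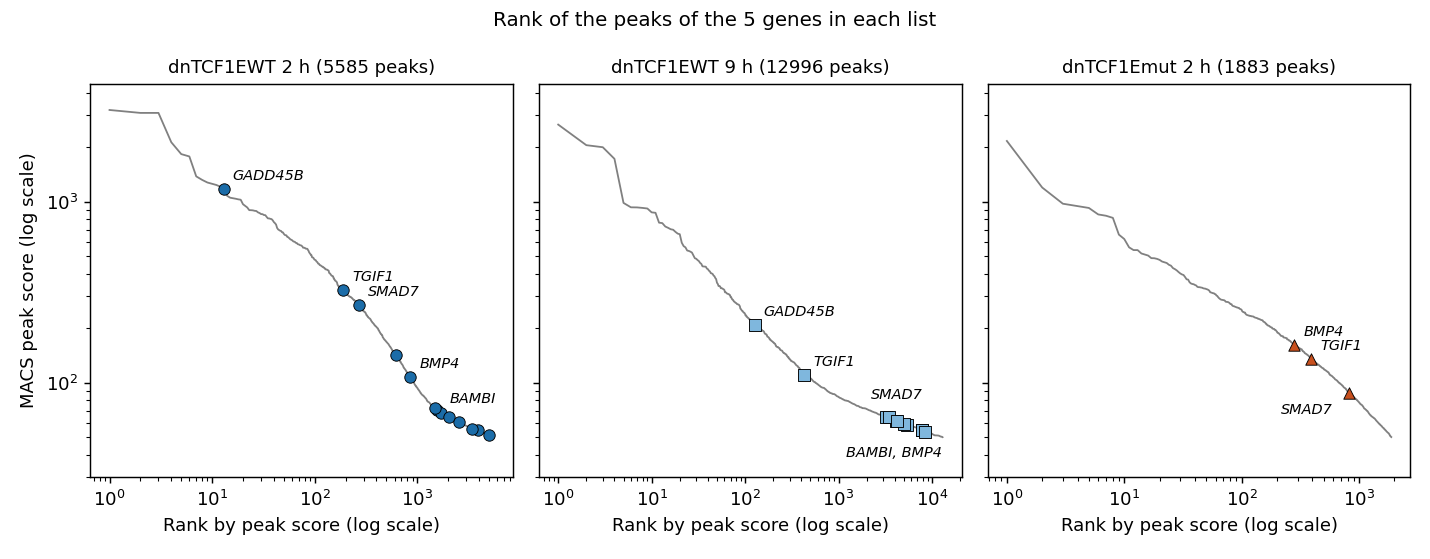
The MACS peak score (log axis) is plotted against rank in the list (log axis) for dnTCF1EWT at 2 and 9 h and dnTCF1Emut at 2 h, with grey lines for all peaks, symbols for the peaks of the 5 genes and a label at the best peak of each gene. GADD45B stands at rank 13 at 2 h and 127 at 9 h for dnTCF1EWT, TGIF1 at 189 and 429, while the best dnTCF1Emut peak, of BMP4, stands at rank 281.

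The 4 regions listed for dnTCF1EWT at both times had higher scores at 2 h. The 2 h score of the GADD45B +42.2 kb region was 5.65-fold the 9 h score, a log2 ratio of 2.50, and that of the TGIF1 CpG island region was 2.92-fold, a log2 ratio of 1.55. The GADD45B Alu region and the BAMBI LTR region had log2 ratios of 0.30 and 0.33. The last pair stood at the median of the 833 dnTCF1EWT 2 h peaks shared with 9 h, which was 0.33 (SD 1.10), and 66.1% of all shared regions scored higher at 2 h. The GADD45B and TGIF1 ratios exceeded those of 94.96 and 80.8% of the shared regions. The ratio contains the 2 h score, and the 278 shared regions with a 2 h score of 200 or more had a median of 1.65 and 93.5% of them scored higher at 2 h. Beside these regions the TGIF1 ratio was close to the median and the GADD45B ratio above it.

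The lists differ in length, so ranks at 2 and 9 h are set side by side as a description. The GADD45B +42.2 kb peak exceeded 99.8% of the list at 2 h and 99.0% at 9 h, and the TGIF1 peak 96.6 and 96.7%, although the scores of both were lower at 9 h. The GADD45B Alu peak exceeded 73.4 and then 59.4% of the list, and the BAMBI peak 69.5 and then 38.0%. By its highest score SMAD7 ranked 254 of 4295 genes at 2 h and 2908 of 8182 at 9 h, with no region in common. BMP4 ranked 764 and then 5692 of these genes, and BAMBI 1476 and then 5692. The longer 9 h list holds many more low scores, so for weak peaks these ranks cannot be read as a change in binding.

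The motif counts of the 5 genes are set beside those of each whole list, and differences between the lists were not tested. At 2 h, 4 of 13 dnTCF1EWT peaks had a Helper site (30.8%, Wilson 95% interval 12.7 to 57.6%), against 7.23% of the list, and 4 of 13 had a WRE, against 16.3%. At 9 h, 4 of 11 had a Helper site (36.4%, interval 15.2 to 64.6%), against 4.83% of the list, and 0 of 11 had a WRE, against 6.56%. Of the 3 dnTCF1Emut peaks at 2 h, 2 had a WRE and 0 a Helper site, where 36% of the list had a WRE and 4.35% a Helper site. The intervals cover counting error alone, and the peaks share 5 genes and 20 regions, so the shares describe these loci and not a class of genes. The choice of the 5 genes with earlier results known also limits what the motif shares can show.

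Helper sites and WREs were mostly in different peaks, as they were in the dnTCF1EWT 2 h list as a whole. In that list 110 of the 404 peaks with a Helper site also had a WRE, a larger share than the 911 of all 5585 peaks (16.3%). Both motifs were uncommon, so lying mostly in different peaks does not mean that they avoided each other. At 2 h, 3 of 13 dnTCF1EWT peaks had a Helper site without a WRE (5.26% of the list), 3 had a WRE without a Helper site (14.3%), 1 had both (1.97%) and 6 had neither (78.4%). A short Helper site was in 9 of 13 peaks at 2 h and 7 of 11 at 9 h, nearer to the 54.1 and 55.4% of these lists, and in 1 of 3 dnTCF1Emut peaks, where the list had 38.9%. The Helper sites belonged to TGIF1, GADD45B and BAMBI, and the WREs to SMAD7 and BMP4 and the GADD45B CpG island peak. The 2 WRE regions shared with dnTCF1Emut were those of BMP4 and SMAD7, which had no Helper site. The remaining dnTCF1Emut peak, in TGIF1, had none of the 3 motifs.

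Per length, the dnTCF1EWT 2 h peaks of these genes had 2.32 Helper sites per kb over 3878 bp, against 0.540 per kb in the list, and the 9 h peaks 2.48 over 2418 bp, against 0.513. WREs stood at 1.29 per kb at 2 h, against 0.924, and at 0 at 9 h, against 0.456. The dnTCF1Emut peaks had 2.49 WREs per kb over 1609 bp, against 1.14. The Helper sites were concentrated in a few GC-rich peaks. The 3 peaks at 2 h with 2 or 3 Helper sites, of TGIF1 and GADD45B, had GC contents of 61.9, 62.2 and 61.5%, and only 2.69% of the list reached 60%. Of those 150 GC-rich peaks 59.3% had a Helper site and 44.7% had 2 or more, so most peaks of that base composition carried the motif. The part of GC content in the Helper counts was not tested.

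**Figure D3:**
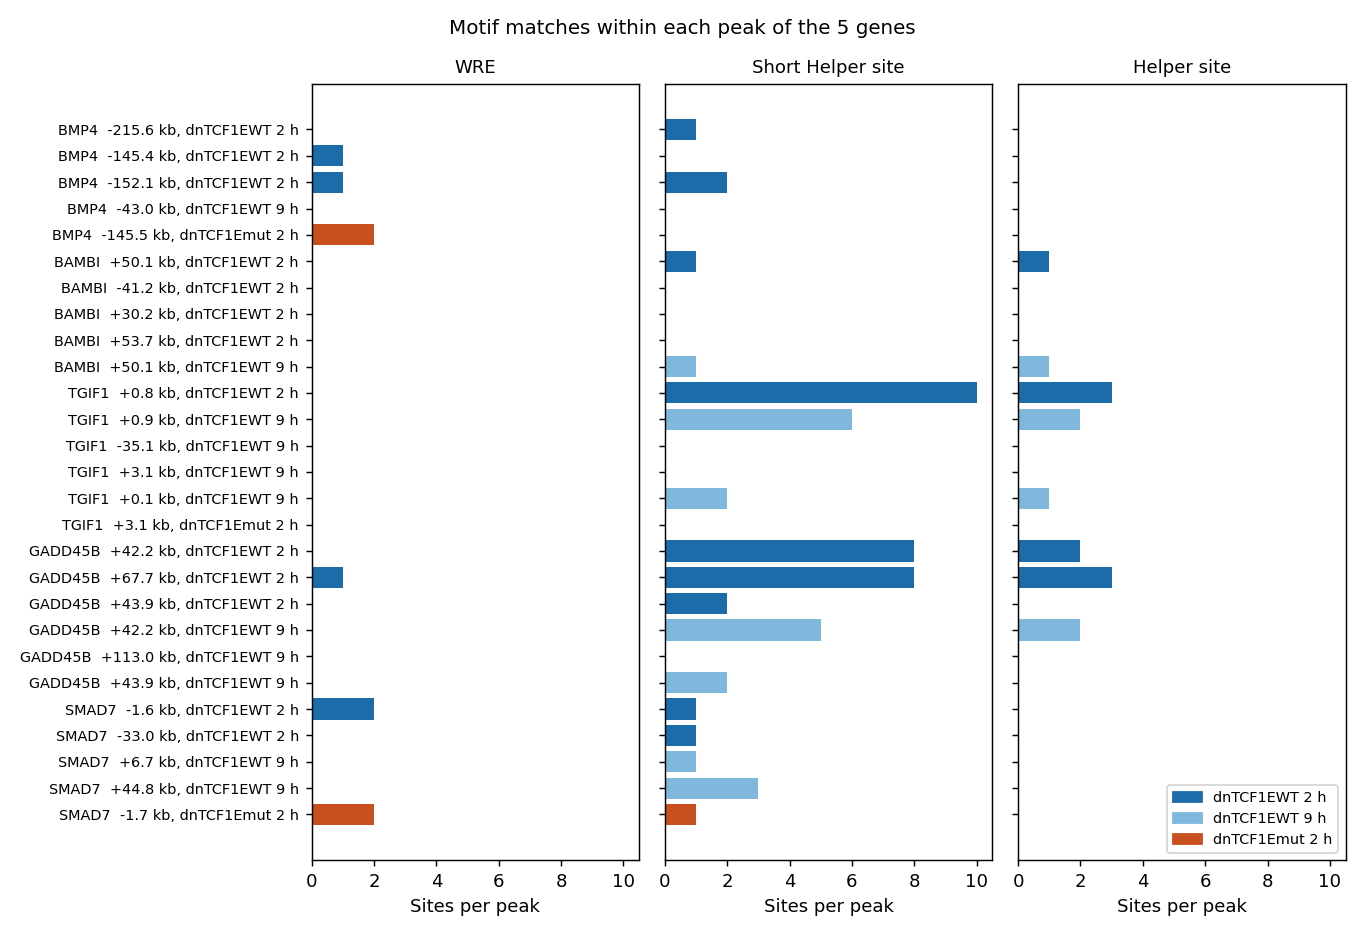
Horizontal bars give the number of matches to each motif (sites per peak) in each of the 27 peaks, labeled by gene, distance from the TSS and list and colored by list. Long bars for short Helper and Helper sites belong to TGIF1 near its TSS, with 10 and 3 sites at 2 h, and to GADD45B at 42.2 and 67.7 kb, with 8 short Helper sites each, while the dnTCF1Emut bars are WREs of BMP4 and SMAD7 and a single short Helper site of SMAD7.

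Sequence of the peaks themselves could not be shown, since no hg19 sequence was used here. To show what the motifs look like at these genes, RefSeq promoter windows of GRCh38.p14, from 250 bases before to 50 after each start, were searched on both strands. All 5 genes matched, with 15 windows. A Helper site was in 6 windows, of TGIF1 (4 of 7), BMP4 (1 of 3) and BAMBI (1 of 1), and in none of GADD45B (1 window) or SMAD7 (3 windows). Of all 35116 promoter windows, 41.6% had a Helper site and 6.62% a WRE. The stretches below are 30 bases each, 5′ to 3′ on the strand of the gene, with the motif or its reverse complement in capitals. They show a Helper site of each of the 3 genes and the only WRE, in TGIF1:
BMP4 Helper site, chr14:53953491-53953520, minus strand: gcaagccctttcGCCGCCtgccgcgggagg
BAMBI Helper site, reverse complement, chr10:28677449-28677478, plus strand: ggggcgaggcggGGCGGTgcaggccggctc
TGIF1 Helper site, chr18:3448181-3448210, plus strand: cccagtaACCGCCcggttccagacgaggct
TGIF1 Helper site, reverse complement, chr18:3448358-3448387, plus strand: ccccctctaacgGGCGGCgggggcgctggc
TGIF1 WRE, reverse complement, chr18:3450192-3450221, plus strand: cgccgagcaggagcaggGAACAAAGgagcg
The windows and the peaks are on different builds and were not placed on each other. A match describes letters in a window and is not a binding site. BAMBI and BMP4 had a Helper site in a promoter window but no peak within 2 kb of a TSS, and SMAD7 had a peak within 2 kb but no Helper site in its windows.

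By position, 2 of 13 dnTCF1EWT 2 h peaks of these genes lay within 2 kb of a TSS, against 5.96% of the list, and these were the TGIF1 and SMAD7 peaks, which had the highest scores after GADD45B. At 9 h there were 2 of 11, both of TGIF1, against 5.15%, and for dnTCF1Emut 1 of 3, of SMAD7, against 2.66%. Within 50 kb lay 7 of 13 peaks at 2 h (57.3% of the list), 9 of 11 at 9 h (61.9%) and 2 of 3 for dnTCF1Emut (45.5%). Beyond 100 kb lay the 3 BMP4 peaks at 2 h, against 25% of the list, 1 GADD45B peak of 11 at 9 h, against 22.5%, and the BMP4 peak of 3 for dnTCF1Emut, against 36.3%. Alu repeats held 4 of 13 peaks at 2 h and 5 of 11 at 9 h, below the 48.5 and 76% of these lists, and the highest score of an Alu peak was 72.53. A score above 67 was reached by 8 of 13 peaks at 2 h (32.3% of the list) and 2 of 11 at 9 h (20.4%). Scores of 100 or more were reached by 5 of 13 peaks at 2 h (16.6% of the list), 2 of 11 at 9 h (4.35%) and 2 of 3 for dnTCF1Emut (35.8%).

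The wider pathway was read from a list of 71 genes. At 2 h, 29 of them were named for a dnTCF1EWT peak (40.8%), beside 40.1% of all named genes. Without the 5 genes it was 24 of 66 (36.4%). At 9 h it was 41 of 71 (57.7%), against 76.5%, and for dnTCF1Emut at 2 h 15 of 71 (21.1%), against 13.9%. The backgrounds here count only genes with a peak in some list, which held for 49 of the 71. Counted over those 49, the 29, 41 and 15 genes stood above the backgrounds of 40.1, 76.5 and 13.9%. The 49 include the 5 genes, and the pathway list was chosen with earlier results of these data known. By role, dnTCF1EWT at 2 h had peaks at 10 of 21 ligands, 4 of 13 receptors, 3 of 8 SMADs, 7 of 15 inhibitors and 5 of 14 targets. dnTCF1Emut at 2 h had peaks at 4, 3, 2, 1 and 5 of these. The untreated lists named 6 of 71 for the dnTCF1EWT line (8.45%, against 15.8%) and 2 for the dnTCF1Emut line (2.82%, against 5.57%), and the dnTCF1Emut 9 h list named 4 (5.63%, against 3.08%). Counted over the 49 genes with a listed peak, the 6 and 2 stood closer to their backgrounds, though still below them. The 4 stood farther above theirs.

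Outside the 5 genes, the highest dnTCF1EWT 2 h scores of each role were GREM1 (292.75, a secreted BMP antagonist, at +84.5 kb), MSX2 (258.74, a homeobox target of BMP signaling, at -220.5 kb), INHBB (227.91, an inhibin and activin subunit, at +45.5 kb), TGFBR2 (201.67, the type II TGF-β receptor, at -378.5 kb) and SMAD3 (151.79, a receptor-regulated SMAD, at +9.31 kb). None of these peaks had a Helper site, but only 7.23% of the list had one. Those of TGFBR2 and SMAD3 had 1 WRE each, where 16.3% of the list had a WRE. At 9 h INHBB had no peak and the best peaks of GREM1, MSX2, TGFBR2 and SMAD3 scored 71.39, 67.17, 112.85 and 66.83, and of these SMAD3 alone had its best peak at nearly the same distance (9.23 kb). GADD45B and TGIF1 had the highest dnTCF1EWT 2 h scores of the 71 genes, followed by GREM1 and SMAD7.

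Pathway genes outside the 5 with a dnTCF1Emut peak at 2 h had their best peaks 41.0 kb or farther from the TSS. In the whole list 45.5% of peaks lay within 50 kb. By any peak, 5 of the 71 pathway genes had a dnTCF1Emut 2 h peak within 50 kb, TGIF1 and SMAD7 among them. The highest was ACVR2A, an activin receptor, with a score of 483.62 at -571.8 kb and 1 WRE, followed by BMPR1B, a type I BMP receptor, with 279.71 at +105.5 kb. The BMPR1B region was also listed before induction, with a score of 212.46. TGFBR2 followed with 259.32 at -378.6 kb and 1 WRE. The others were CDKN2B (126.55), a cell cycle inhibitor induced by TGF-β, MSX1 (124.72, with 5 WREs), BMP2 (117.21), TGFB3 (108.46), ID2 (96.05), ID4 (70.17), SMAD1 (66.55), MSX2 (63.64) and BMP7 (56.51). BMP2, TGFB3 and ID2 had 1 WRE each in these best peaks, where 36% of the list had a WRE. None of the best peaks of this group had a Helper site, but only 4.35% of the list had one. For BMP2, TGFB3, TGFBR2 and ID2 the best dnTCF1EWT 2 h peak lay at nearly the same distance, with scores of 68.82, 73.92, 201.67 and 159.47. The dnTCF1Emut score was the higher of the pair for BMP2, TGFB3 and TGFBR2, as it was at -145.5 kb of BMP4, and the lower for ID2, as it was for SMAD7.

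**Figure D4:**
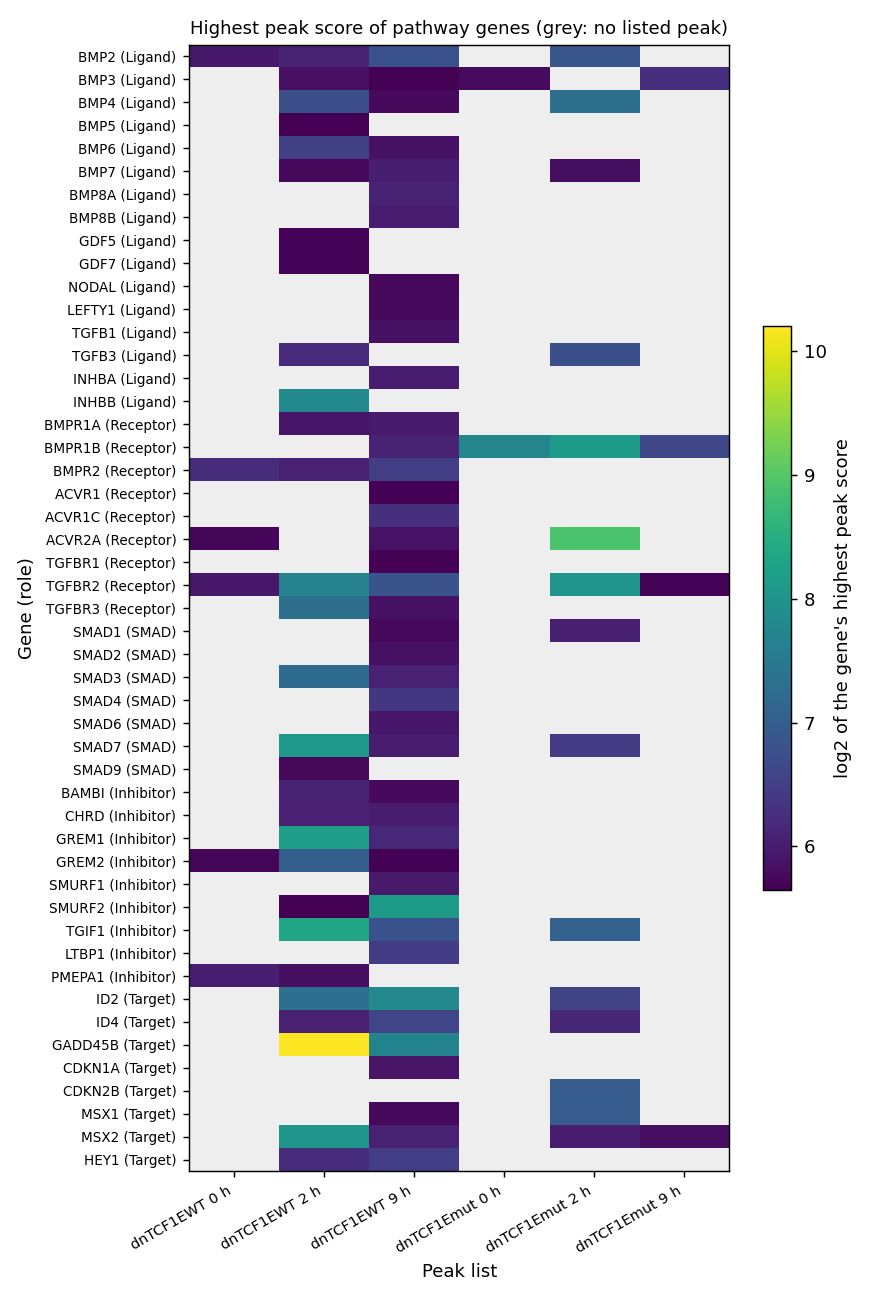
Color gives the log2 of the highest MACS peak score of each pathway gene (rows, with its role) in each of the 6 lists (columns), for the 49 of 71 genes with any listed peak, and grey marks no listed peak. The brightest cell is GADD45B for dnTCF1EWT at 2 h (score 1176.77), the dnTCF1Emut 2 h column is led by ACVR2A (483.62), and the 5 genes described here are grey in both 0 h columns and at dnTCF1Emut 9 h.

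Genes with score patterns most like each of the 5 were found by Euclidean distance between log2 highest scores over the 6 lists. For BMP4 they were GLDC (distance 0.134) and IRS1 (0.215), with 2 h scores of 108.58 and 118.61 for dnTCF1EWT and 155.06 and 149.38 for dnTCF1Emut and none at 9 h. For BAMBI they were KCNAB1 (0.0123) and RASGRP3 (0.0131), with dnTCF1EWT scores of 68.01 and 67.82 at 2 h and 54.14 and 54.68 at 9 h. How many other genes have a like pattern was not counted. For SMAD7 they were C1QTNF3-AMACR (0.179) and ZFP36L2 (0.232), and for TGIF1 EDAR (0.222) and APBB1IP (0.314). GADD45B was nearest to RPTOR (0.213), whose scores were 1278.08 and 235.15 at 2 and 9 h, with a peak of 50.68 before induction, and to MIR3143 (0.489). The distance describes these lists and carries no statement about the genes.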

How the data were processed

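The data were 6 peak lists, 1 per protein and time. The submitters' processing notes name CASAVA 1.8.2, Bowtie2 2.0.0, MACS 1.3, HOMER 3.16 and hg19. The authors pooled duplicates before calling peaks with MACS, while the labels call most libraries first replicates. The deposited peak score is that of MACS, which grows as the P-value shrinks and is not scaled for depth. The deposited counts of WREs, short Helper and Helper sites are matches within each peak. The deposited GC content is a fraction of the bases, given here in percent. Distances to the nearest RefSeq TSS were measured by the authors from peak centers. The deposited BED files held the same peaks and were used as a check. Input libraries were not used here, and neither was the nascent RNA of the study.

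Peaks were taken by gene name and ranked by score. Regions were called shared when peaks overlapped by any base. The percentage given beside each count is the same measure over the whole list. No test was made, since each condition is 1 list. Wilson 95% intervals cover counting error only. The named genes are the 5 genes with every peak, GNG7 as the host transcript, the pathway gene outside the 5 with the highest dnTCF1EWT 2 h score in each role, each pathway gene with a dnTCF1Emut 2 h peak, and the 2 genes nearest in score pattern (a gene without a peak was set to the lowest score of that list). MIR5580, MIR4744, MYL12B and LMNB2 were named after their values were seen. The 5 genes and the pathway list (71 genes) were chosen with earlier results of these data known. The groups of GC-rich peaks (60% or more) and of 2 h scores of 200 or more were chosen after seeing the data. Alternatives changed the score threshold, distance, gene naming, motif, overlap and scale. The overlap function was tested on simulated data. RefSeq promoter sequences were of GRCh38.p14. Figures were drawn with matplotlib 3.10.9, and values computed with SciPy 1.17.1, pandas 2.3.3 and NumPy 2.4.6 in Python 3.11.15.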

Additional observations from a re-analysis of the deposited data

Results flagged for a closer look

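The TGIF1 region about 3 kb downstream of a TSS was listed at different times in the 2 lines. It was listed for dnTCF1EWT at 9 h but not at 2 h, with a score of 58.57, and for dnTCF1Emut at 2 h but not at 9 h, with a score of 135.29. An unlisted region can have a score just under the threshold of about 50, and 12.4% of all dnTCF1Emut 2 h peaks were overlapped by a peak at 9 h, so a direction with time cannot be read from this. The difference was not tested, and protein and cell line cannot be told apart.

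After induction, 3 peaks within 100 kb of a TSS of the 5 genes were named for another gene and so stood outside the counts by gene name. None of the 3 overlapped a peak of untreated cells. They were a dnTCF1EWT 2 h peak 9.71 kb from the BMP4 TSS (score 57.45, named for MIR5580), a dnTCF1Emut 2 h peak 73.8 kb from it (score 55.25, also named for MIR5580) and a dnTCF1EWT 9 h peak 16.2 kb upstream of the GADD45B TSS (score 69.64, named for LMNB2).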

How the results depend on the processing

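Of 25 alternatives, 15 left the value within the stated limits (counts within 1.5 times, shares within the Wilson interval), 10 moved it and 0 reversed a direction. Counts and shares have no direction, so they could not reverse. The only signed value was the mean log2 ratio of dnTCF1EWT at 2 h over 9 h. It was 1.17 under both overlap rules because both kept the same 4 regions. The score threshold moved most. The 13 dnTCF1EWT 2 h peaks became 8 above a score of 67 and 5 at 100 or more, and the 11 at 9 h became 2 under either, 1 each of TGIF1 and GADD45B. Within 50 kb of a TSS there were 7 peaks at 2 h. Counting short Helper sites raised the Helper share at 2 h from 30.8 to 69.2%. When 50% or more of both peaks had to overlap, 1 in place of 2 dnTCF1EWT 2 h peaks was shared with dnTCF1Emut. The region lost was that of BMP4 at -145.4 kb, where the score was higher for dnTCF1Emut, and the TGIF1 region shared by dnTCF1Emut at 2 h and dnTCF1EWT at 9 h was lost too. The 29 pathway genes at 2 h became 18 above a score of 67 and 17 within 50 kb, and the 15 of dnTCF1Emut became 5 within 50 kb. These alternatives keep fewer peaks or shorter motifs by construction. As a difference in rank percentile, dnTCF1EWT at 2 h minus 9 h averaged 11.5 points over the 4 shared regions and was positive in 3 of them. The weak BAMBI LTR and GADD45B Alu regions gave 31.5 and 14.0 points, and the strong GADD45B and TGIF1 regions 0.74 and -0.08. The longer 9 h list holds many more low scores, so this mean cannot be read as a change in binding. No paired analysis was possible because each condition is 1 pooled list without a test. Depth is unknown, so a region missing from a list cannot be told from one just under its threshold.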
